A study of Saccharomyces cerevisiae with 17 samples.

Results

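RNA levels in a yeast strain that lacks EAF3 (the eaf3 deletion, eaf3Δ) were compared with those in a strain whose histone H3 carries alanine in place of lysine 36 (H3K36A), which sets loss of a reader of a histone mark against loss of the residue that bears the mark. All rows of the deposited expression table that name a gene were taken, 5326 of 5328 rows, and the 2 rows named R were left out. Of these genes, 3657 had a mean level of at least 10 RPKM (reads normalised to gene length and library size) over the 4 genotypes of the table and were compared, and 1669 had a lower mean. The measure is the log2 ratio of eaf3Δ to H3K36A, computed on RPKM with 1 added, so that a ratio above 0 means a higher RNA level in eaf3Δ and a ratio below 0 a higher level in H3K36A.

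Lysine 36 of H3 is methylated by Set2, an enzyme that travels with elongating RNA polymerase II, so that the mark lies over the bodies of transcribed genes. Eaf3 binds the methylated lysine through its chromodomain and is a subunit of both the histone deacetylase complex Rpd3S and the histone acetyltransferase complex NuA4. Rpd3S removes acetyl groups behind the polymerase and is known for keeping promoters inside genes silent, whereas NuA4 acetylates histone H4 and H2A at many promoters.

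All strains were of the BY4741 background, haploid MATa cells with his3-, leu2-, met15- and ura3- markers, grown to mid-log phase in YPD, a rich glucose medium, at 30 °C. Besides H3K36A and eaf3Δ, wild type and a strain lacking SET2 (the set2 deletion, set2Δ) were profiled, each by 2 RNA libraries described as biological replicates. The labels do not say how the histone mutation was introduced, whether it was carried at 1 or both H3 genes, or how many clones were used. RNA was extracted with hot phenol, treated with DNase I, freed of rRNA and turned into strand-specific libraries. The series also holds 9 libraries of chromatin immunoprecipitation and input DNA, which were not analysed here.

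The table gives 1 value per genotype, the authors' mean over its libraries, so no spread between replicates is known, nothing was tested, and a difference is described by its size alone. The number of reads behind each value is unknown too. Calls below are therefore of genes at least 2-fold apart, on the authors' scale unless the median gene is named. The lowest value in the table is 1.00. SET2, EAF3 and the H3 genes HHT1 and HHT2 have no value used here, so the genotypes were not checked on the altered genes. In bulk RNA, fewer cells that express a gene and less RNA per cell cannot be told apart.

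The levels of most genes lay close together in eaf3Δ and in H3K36A. The median log2 ratio of the 3657 genes was -0.03, and 3244 of them (88.7%) were within 1.5-fold of the median gene. At least 2-fold higher in eaf3Δ were 29 genes, 0.793% of those compared, and at least 2-fold lower were 111 genes, 3.04%. These shares are the background for the list counts given below. Relative to the median gene, which adds 0.03 to each log2 ratio, 29 genes (0.793%) were higher and 103 (2.82%) lower. The lower quartile of the ratios was -0.25 and the upper quartile 0.16. Between these quartiles the log2 ratios of eaf3Δ to H3K36A spanned 0.41. The corresponding span was 0.32 for eaf3Δ against set2Δ and 0.48 for H3K36A against set2Δ. These 3 spans rest on shared columns and were not tested against each other.

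**Figure D1:**
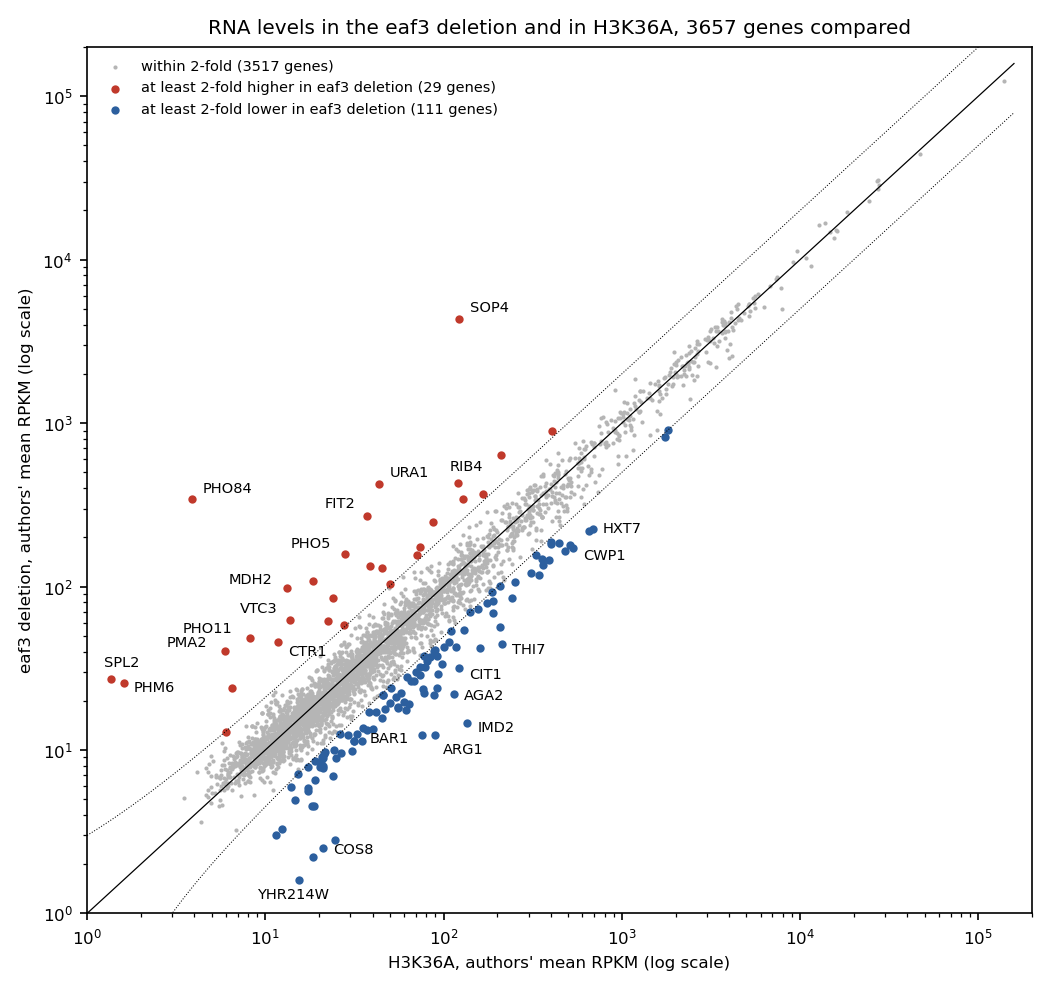
Each point is 1 of the 3657 genes compared, with the authors' mean RPKM in H3K36A on the horizontal axis and in eaf3Δ on the vertical axis, both on log scales. The solid line marks equal levels and the dotted lines 2-fold differences after adding 1 RPKM. The 29 red points lie above the upper dotted line, with PHO84 and SOP4 farthest from it, and the 111 blue points lie below the lower one.

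A 2-fold gap between the mutants can arise from either side of wild type, and the genes divided accordingly. Of the 29 higher genes, 17 were at least 2-fold below wild type in H3K36A and 11 at least 2-fold above wild type in eaf3Δ, with 1 gene in both sets and 2 in neither. Of the 111 lower genes, 54 were at least 2-fold above wild type in H3K36A and 32 at least 2-fold below wild type in eaf3Δ, with 1 in both and 26 in neither. Of all 3657 genes compared, H3K36A was at least 2-fold below wild type in 657 and above in 143, and eaf3Δ was below in 585 and above in 56. With each mutant taken relative to its own median gene against wild type, H3K36A was above in 66 of the 111 and eaf3Δ below in 20. Among the 29 higher genes these centred counts were 12 with H3K36A below and 14 with eaf3Δ above. On the same centred scale, of all 3657 genes H3K36A was above in 254 and below in 354, and eaf3Δ was below in 257 and above in 130. H3K36A had the lowest value of the 4 genotypes in 23 of the 29 higher genes, and the highest in 85 of the 111 lower ones, against 38.4% and 23.9% of all genes compared. For its part, eaf3Δ had the highest value in 18 of the 29 and the lowest in 65 of the 111, against 6.23% and 35.2% of all. The value of set2Δ lay between those of the 2 mutants in 23 of the 29 and in 70 of the 111 genes, against 29.7% of all. Genes chosen for a gap between the 2 mutants favour both mutants as extremes and leave room for a value in between, so these counts are in part fixed by the choice.

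Genes of phosphate supply were among the higher genes. Across the lists for phosphate uptake and signalling, vacuolar polyphosphate and phosphatases, 22 genes were compared, of which 8 were at least 2-fold higher in eaf3Δ and 1 lower. These 8 were 27.6% of all higher genes, and of all genes compared 0.793% were higher and 3.04% lower. Transport came first in size. PHO84 (YML123C, chromosome XIII, 24037 to 25800), the high-affinity phosphate transporter, had an RPKM of 611 in wild type, 197 in set2Δ, 3.88 in H3K36A and 344 in eaf3Δ. Its level in H3K36A stood far below those of the other genotypes, and its log2 ratio of 6.14 was the highest of all genes compared. PHO84 overlaps an annotated antisense RNA, and the labels do not say whether strand was used in counting. SPL2, a small regulator of low-affinity phosphate transport, had 34.1 in wild type, 15.2 in set2Δ, 1.36 in H3K36A and 27.01 in eaf3Δ, a log2 ratio of 3.57. PHM6, a gene of the phosphate regulon with no known molecular function, had 23.3 in wild type, 10.6 in set2Δ, 1.60 in H3K36A and 25.6 in eaf3Δ, a log2 ratio of 3.35. For both genes H3K36A was near the lowest value that the table holds, while eaf3Δ was close to wild type.

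The other phosphate uptake and signalling genes were less far apart, but all 11 that were compared had a ratio above 0, with a median of 0.30 against -0.03 for all genes. With the members under the minimum mean included, the list median was 0.09. PHO81, the inhibitor of the Pho80-Pho85 kinase, had 20.9 in wild type, 9.52 in set2Δ, 5.74 in H3K36A and 11.03 in eaf3Δ, a log2 ratio of 0.84. PHO4, the transcription factor of the regulon, had 20.6 in H3K36A and 22.1 in eaf3Δ and a ratio of 0.09. The low-affinity transporter genes PHO87, PHO90 and PHO91 had ratios of 0.36, 0.08 and 0.01. Thus none of the kinase, cyclin and transcription factor genes of the pathway that were compared was 2-fold apart. Of the 17 genes listed, 15 were in the table and 4 of these fell under the mean of 10 RPKM.

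The vacuolar transporter chaperone complex, which makes and stores polyphosphate, had 3 of its 4 genes compared at least 2-fold higher in eaf3Δ and a median log2 ratio of 1.33. Of all genes compared, 0.793% were at least 2-fold higher. VTC3 had 93.6 in wild type, 41.8 in set2Δ, 13.8 in H3K36A and 62.7 in eaf3Δ, a log2 ratio of 2.11. VTC4, the catalytic subunit, had 147 in wild type, 92.2 in set2Δ, 45.2 in H3K36A and 130.1 in eaf3Δ (1.51). VTC1 had 399 in wild type, 258 in set2Δ, 166 in H3K36A and 367 in eaf3Δ (1.15), and VTC2, with 36.95 in H3K36A and 52.3 in eaf3Δ, was at 0.49. In all 4 genes H3K36A was lowest and wild type highest. The median log2 ratio of this list to wild type was -1.47 in H3K36A, -0.65 in set2Δ and -0.15 in eaf3Δ. VTC5, the remaining subunit, was below the mean of 10 RPKM.

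Secreted acid phosphatases went both ways. PHO5 (YBR093C, chromosome II, 429548 to 430951), the phosphatase induced by phosphate starvation, had 37.4 in wild type, 33.5 in set2Δ, 28.04 in H3K36A and 158 in eaf3Δ. Unlike PHO84 it was near wild type in H3K36A and stood above all other genotypes in eaf3Δ, with a log2 ratio of 2.45. PHO11, another secreted phosphatase of the regulon with a close paralog in PHO12, had 50.7 in wild type, 24.99 in set2Δ, 8.15 in H3K36A and 48.7 in eaf3Δ, a ratio of 2.44. PHO3, the neighbour of PHO5 at a distance of 447 bp and its close paralog, had 378 in wild type, 301 in set2Δ, 391 in H3K36A and 146 in eaf3Δ, and was lower at -1.41. Reads may be shared between such paralogs, which leaves their single values uncertain. PHO8, the vacuolar alkaline phosphatase, had 34.8 in H3K36A and 42.7 in eaf3Δ (0.29). Of the 7 phosphatase genes compared, 2 were higher, 1 was lower and 4 were within 2-fold.

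Next to PHO84, the gene farthest from equal levels was SOP4 (YJL192C, chromosome X, 72710 to 73414), which encodes a subunit of the endoplasmic reticulum membrane complex. It had 114 in wild type, 105 in set2Δ, 123 in H3K36A and 4353 in eaf3Δ, a log2 ratio of 5.14. eaf3Δ alone stood apart, and the other genotypes lay within 20 RPKM of each other. Of the 16 genes compared for the same complex and for chaperones of the endoplasmic reticulum, SOP4 was the 1 gene beyond 2-fold, and the list median was -0.07. PMA2, a plasma membrane proton pump with a much more abundant paralog in PMA1, had 7.50 in wild type, 6.57 in set2Δ, 5.93 in H3K36A and 40.4 in eaf3Δ, a log2 ratio of 2.58, and passed the minimum mean only through eaf3Δ. RIB4, lumazine synthase of riboflavin synthesis, had 166 in wild type, 221 in set2Δ, 120.3 in H3K36A and 428 in eaf3Δ (1.82). In these 3 genes, as in PHO5, eaf3Δ was the highest genotype and the mutant farther from wild type.

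Pyrimidine synthesis and salvage had 3 of 14 genes at least 2-fold higher in eaf3Δ, against 0.793% of all genes compared, and none lower. The list had a median log2 ratio of 0.20. The median was 0.08 over all members in the table and also over the 13 that passed on wild type and set2Δ. URA1, dihydroorotate dehydrogenase, had 261 in wild type, 293 in set2Δ, 43.5 in H3K36A and 426 in eaf3Δ, a ratio of 3.27. URA4, dihydroorotase, had 85.1 in wild type, 87.3 in set2Δ, 38.6 in H3K36A and 134 in eaf3Δ (1.77). In both, H3K36A was lowest and eaf3Δ highest of the 4 genotypes. FUI1, the uridine permease, had 28.1 in wild type, 60.6 in set2Δ, 50.1 in H3K36A and 104 in eaf3Δ (1.04), with wild type as the lowest genotype. URA2, which encodes the first enzyme of the pathway, had a ratio of 0.71, and URA8, a CTP synthase, had -0.68. The strains carry a ura3- marker, and URA3 has no value used here.

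Copper and iron genes had 4 of 19 members at least 2-fold higher, against 0.793% of all genes compared, and none lower. Of the 19 ratios, 18 were above 0, with a median of 0.55. TIS11 is among the 4 and passed the minimum only through eaf3Δ, and without it 3 of 18 were higher. CTR1, the high-affinity copper transporter, had 81.3 in wild type, 46.4 in set2Δ, 11.7 in H3K36A and 45.98 in eaf3Δ, a log2 ratio of 1.88. FRE1, the reductase that supplies copper and iron to their transporters, had 98.7 in wild type, 62.1 in set2Δ, 23.96 in H3K36A and 84.8 in eaf3Δ (1.78). For these 2 genes H3K36A was the low genotype. TIS11, an RNA-binding protein that promotes decay of mRNAs during iron shortage, had 6.73 in wild type, 5.49 in set2Δ, 6.47 in H3K36A and 24.1 in eaf3Δ (1.75), and here eaf3Δ was the high one. ARN1, a siderophore transporter, had 25.2 in wild type, 25.1 in set2Δ, 27.7 in H3K36A and 58.4 in eaf3Δ (1.05). FET3 and FTR1, the oxidase and permease of high-affinity iron uptake, had ratios of 0.51 and 0.55. The metallothionein copies CUP1-1 and CUP1-2 share 1 set of values, 624 in wild type, 173 in set2Δ, 77.2 in H3K36A and 78.6 in eaf3Δ, and did not differ between the 2 mutants beyond a ratio of 0.03. FIT2 and FIT3, cell wall mannoproteins that hold siderophore-bound iron and lie side by side on chromosome XV, were both higher in eaf3Δ. FIT2 had 133 in wild type, 108 in set2Δ, 37.1 in H3K36A and 271 in eaf3Δ (2.83) and FIT3 had 223 in wild type, 368 in set2Δ, 209 in H3K36A and 634 in eaf3Δ (1.60).

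**Figure D2:**
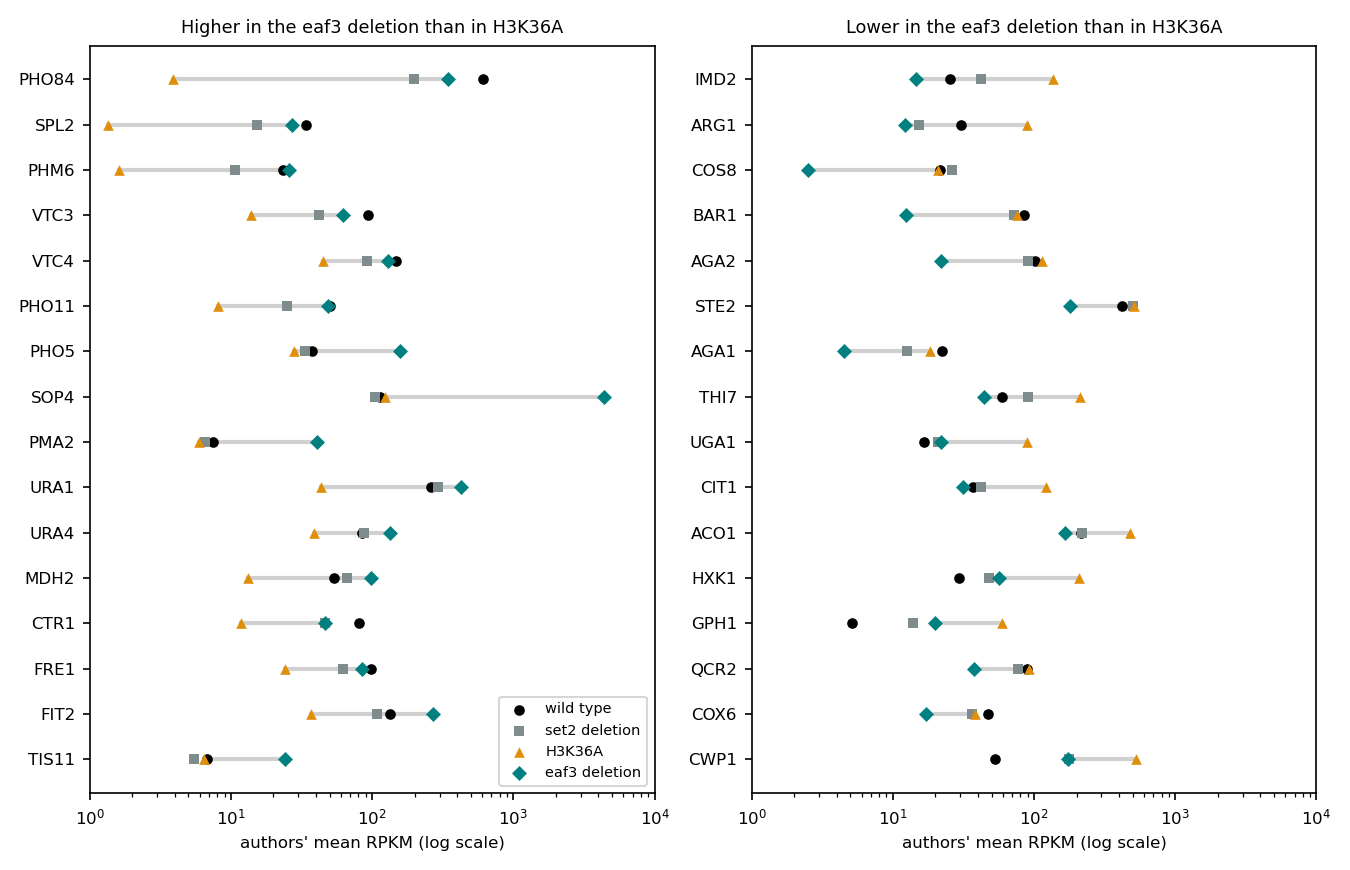
Authors' mean RPKM on a log scale in wild type (circles), set2Δ (squares), H3K36A (triangles) and eaf3Δ (diamonds) for 16 genes at least 2-fold higher (left) and 16 at least 2-fold lower (right) in eaf3Δ than in H3K36A. Grey bars join the 2 mutants. H3K36A is the outlying genotype for PHO84, SPL2, PHM6 and CTR1 on the left and for UGA1, CIT1 and HXK1 on the right, and eaf3Δ is for SOP4, PMA2, PHO5, COS8, BAR1, AGA2 and STE2.

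Enzymes of arginine metabolism split by direction of the pathway. CAR1, arginase, and CAR2, ornithine transaminase, which break arginine down, were higher in eaf3Δ, and ARG1 and ARG56, which act in its synthesis, were lower. CAR2 had 95.4 in wild type, 134 in set2Δ, 87.4 in H3K36A and 248 in eaf3Δ (1.496), and CAR1 had 134 in wild type, 103 in set2Δ, 71.01 in H3K36A and 155 in eaf3Δ (1.11). ARG1, argininosuccinate synthase, had 30.4 in wild type, 15.4 in set2Δ, 89.3 in H3K36A and 12.3 in eaf3Δ, and its log2 ratio of -2.76 was the lowest after that of IMD2. ARG56, whose product is processed into acetylglutamate kinase and reductase, had 19.5 in wild type, 13.01 in set2Δ, 26.4 in H3K36A and 9.54 in eaf3Δ (-1.38). The remaining 5 of the 9 genes compared were between -0.77 and -0.04, and the list median was -0.48. Lysine synthesis genes, by contrast, had a median of 0.37 with 0 of 8 beyond 2-fold and LYS9 at 0.85. Histidine synthesis had 1 of 7 lower, HIS3, with 61.2 in wild type, 72.1 in set2Δ, 141 in H3K36A and 69.4 in eaf3Δ (-1.01), which was not 2-fold apart relative to the median gene. HIS3 is also a marker, and the strains are labelled his3-. Leucine, isoleucine and valine synthesis had 1 of 11 lower, the cytosolic transaminase gene BAT2 (175 in H3K36A and 79.7 in eaf3Δ, -1.13).

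The lowest median of any list was that of the MATa-specific genes, at a log2 ratio of -1.52. For 4 of the 5 that were compared, eaf3Δ was lower than H3K36A by 2-fold or more, against 3.04% of all genes compared. The lowest genotype was eaf3Δ in all 5, against 35.2% of all genes compared. BAR1, the secreted protease that degrades alpha-factor, had 84.6 in wild type, 71.7 in set2Δ, 75.2 in H3K36A and 12.4 in eaf3Δ, a log2 ratio of -2.51. AGA2, the adhesion subunit of a-agglutinin, had 102 in wild type, 90.8 in set2Δ, 114 in H3K36A and 22.1 in eaf3Δ (-2.31). The a-factor gene MFA2 had 73.9 in wild type, 125 in set2Δ, 98.6 in H3K36A and 33.7 in eaf3Δ (-1.52), and STE2, the alpha-factor receptor, had 418 in wild type, 504 in set2Δ, 513 in H3K36A and 179 in eaf3Δ (-1.51). For these 4 genes H3K36A was within 2-fold of wild type and of set2Δ. STE6, the a-factor exporter, had 54.97 in wild type, 26.1 in set2Δ, 17.9 in H3K36A and 12.2 in eaf3Δ and was at -0.52. MFA1, the other a-factor gene, was below the mean of 10 RPKM, with 9.59 in H3K36A and 1.60 in eaf3Δ.

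Genes that haploid cells of both mating types use were also mostly below 0, with 14 of 17 ratios and a median of -0.25. Of all genes compared, 54.4% had a ratio below 0, and the median was -0.03. AGA1, the anchor subunit of a-agglutinin, had 22.4 in wild type, 12.5 in set2Δ, 18.4 in H3K36A and 4.54 in eaf3Δ (-1.81), and SST2, which turns off pheromone signalling, had 36.6 in wild type, 22.03 in set2Δ, 20.6 in H3K36A and 8.58 in eaf3Δ (-1.17). The other 15 were within 2-fold, from FAR1 at -0.72 to HO at 0.73. Of the 4 genes in the MATalpha-specific list, which is not complete, SAG1, the alpha-agglutinin gene, was the 1 in the table. It had 12.5 in wild type, 12.3 in set2Δ, 18.4 in H3K36A and 11.4 in eaf3Δ (-0.65), so it was not higher in eaf3Δ. The rows for the alpha2 repressor gene, which carry the same values for its copies at HML and MAT, had 8.97 in wild type, 3.17 in set2Δ, 2.62 in H3K36A and 2.65 in eaf3Δ. The part of mating-type cassettes in the MATa-specific differences was not tested.

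Genes of mitochondrial energy supply had ratios mostly below 0, and a minority passed 2-fold. In the lists for the respiratory chain, ATP synthase and the citrate cycle together, 52 genes were compared. Of these, 19 (36.5%, against 3.04% of all genes compared) were at least 2-fold lower and none higher. A ratio below 0 was found in 50 of the 52, against 54.4% of all genes compared. The median log2 ratio was -0.88. Of the nuclear genes for the respiratory chain, 8 of 20 were lower by 2-fold or more (7 once the median gene is set to 0), all 20 ratios were below 0 and the median was -0.87. QCR10 and QCR2, subunits of the cytochrome bc1 complex, had ratios of -1.44 and -1.27, with QCR2 at 89.03 in wild type, 77.6 in set2Δ, 92.1 in H3K36A and 37.5 in eaf3Δ. CYT1, cytochrome c1, had 68.3 in wild type, 49.7 in set2Δ, 69.9 in H3K36A and 30.2 in eaf3Δ (-1.18). CYC1, the main cytochrome c isoform, had 63.2 in wild type, 71.4 in set2Δ, 107 in H3K36A and 45.7 in eaf3Δ (-1.21). Of cytochrome c oxidase, COX5B, COX6, COX4 and COX9 were at -1.14, -1.12, -1.10 and -1.004. eaf3Δ was the lowest of the 4 genotypes in 19 of the 20 genes.

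In ATP synthase too eaf3Δ was mostly the lowest genotype, in 13 of the 15 nuclear genes compared. By 2-fold or more 4 were lower, all 15 ratios were below 0, and the median was -0.84. ATP3, the gamma subunit, had 95.5 in wild type, 79.4 in set2Δ, 83.4 in H3K36A and 37.02 in eaf3Δ (-1.15). ATP15, the epsilon subunit, had 92.7 in wild type, 147 in set2Δ, 189 in H3K36A and 81.7 in eaf3Δ (-1.20), and ATP20, a subunit of the membrane part, had 44.01 in wild type, 37.4 in set2Δ, 29.2 in H3K36A and 12.3 in eaf3Δ (-1.18). INH1, the inhibitor of ATP hydrolysis by the enzyme, had 60.3 in wild type, 139.7 in set2Δ, 189 in H3K36A and 68.9 in eaf3Δ (-1.44), with H3K36A and set2Δ above the other genotypes. Against wild type, the medians of the respiratory chain and ATP synthase lists were 0.04 and -0.02 in H3K36A, 0.07 and 0.05 in set2Δ, and -0.82 and -0.83 in eaf3Δ. The median of all genes compared was itself below wild type, by -0.32 in H3K36A, -0.23 in set2Δ and -0.36 in eaf3Δ. Relative to these, the respiratory chain list was at 0.36 in H3K36A and -0.46 in eaf3Δ and the ATP synthase list at 0.30 and -0.47, so on that scale the mutants lay on opposite sides of wild type.

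In the citrate cycle H3K36A was above wild type on both scales. Of 17 genes, 7 were lower in eaf3Δ by 2-fold or more, against 3.04% of all genes compared, and the median log2 ratio was -0.90. H3K36A was the highest genotype in 15 of the 17. The list median against wild type was 0.78 in H3K36A, 0.10 in set2Δ and -0.14 in eaf3Δ, and relative to the median gene of each mutant it was 1.10 in H3K36A and 0.22 in eaf3Δ. CIT1, mitochondrial citrate synthase, had 37.1 in wild type, 41.8 in set2Δ, 122 in H3K36A and 31.6 in eaf3Δ (-1.91). ACO1, aconitase, had 214 in wild type, 219 in set2Δ, 480.2 in H3K36A and 165 in eaf3Δ (-1.53). IDH2 and IDH1, the subunits of NAD-dependent isocitrate dehydrogenase, were at -1.53 and -1.25, and SDH1 and SDH2 of succinate dehydrogenase at -1.28 and -1.11. IDH2 had 197 in wild type, 169.6 in set2Δ, 345 in H3K36A and 118 in eaf3Δ, so the mutants lay on opposite sides of wild type there, each by less than 2-fold. MDH2, the cytosolic malate dehydrogenase of gluconeogenesis, was the reverse case and was among the highest ratios, with 53.3 in wild type, 65.97 in set2Δ, 13.2 in H3K36A and 97.5 in eaf3Δ (2.79).

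Of 4 hexokinase and glucokinase genes, 2 were at least 2-fold lower in eaf3Δ, and of 7 hexose transporter genes 2 were lower and 1 higher. Of all genes compared, 3.04% were lower and 0.793% higher. HXK1, hexokinase 1, had 29.2 in wild type, 48.3 in set2Δ, 208 in H3K36A and 56.7 in eaf3Δ (-1.86), and GLK1, glucokinase, had 82.5 in wild type, 109 in set2Δ, 445 in H3K36A and 184 in eaf3Δ (-1.27). Both were highest in H3K36A, and in eaf3Δ both were also above wild type. HXK2, the hexokinase that predominates on glucose, had 759.5 in H3K36A and 1068 in eaf3Δ, a ratio of 0.49, and EMI2, a glucokinase paralog, was at -0.76. YFR052C-A, a dubious reading frame that overlaps HXK1, had 91.7 in H3K36A and 23.9 in eaf3Δ (-1.90) and can share its reads. Among the hexose transporters, HXT7 had 147 in wild type, 299.6 in set2Δ, 685 in H3K36A and 225 in eaf3Δ (-1.60), and HXT6, its near-identical copy, was at -1.59. HXT1, the low-affinity transporter, had 289 in wild type, 229.8 in set2Δ, 128 in H3K36A and 342 in eaf3Δ (1.41), and was lowest in H3K36A and highest in eaf3Δ. The other 4 transporter and sensor genes compared were within 2-fold, with HXT2 at -0.50, HXT4 at -0.43, RGT2 at 0.11 and HXT3 at 0.80. The list median was -0.43, and -0.08 when the 2 members under the minimum mean were included. The 20 glycolytic and fermentative genes compared had 0 beyond 2-fold and a median of 0.03, from PDC5 at -0.96 to ENO1 at 0.65. Of the 5 glucose-repressed and gluconeogenic genes compared, MDH2 was higher, ALD4, mitochondrial aldehyde dehydrogenase, was lower with 32.8 in wild type, 73.6 in set2Δ, 160.5 in H3K36A and 42.1 in eaf3Δ (-1.91), and the other 3 were within 2-fold.

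Genes of storage carbohydrates and stress had ratios almost all below 0, and a minority of them passed 2-fold. Of 14 trehalose and glycogen genes, 5 were lower by 2-fold or more and all ratios were below 0, with a median of -0.85. Of all genes compared, 3.04% were lower by 2-fold or more and 54.4% had a ratio below 0. H3K36A was the highest genotype in the 14, and the list median against wild type was 1.28 in H3K36A and 0.34 in eaf3Δ. GPH1, glycogen phosphorylase, had 5.13 in wild type, 13.9 in set2Δ, 59.6 in H3K36A and 19.8 in eaf3Δ (-1.54). GSY2, glycogen synthase, had 13.6 in wild type, 22.7 in set2Δ, 78.7 in H3K36A and 32.1 in eaf3Δ (-1.27), and GLC3, the branching enzyme, had 20.5 in H3K36A and 7.94 in eaf3Δ (-1.27). UGP1, which makes UDP-glucose for both polymers, had 398 in H3K36A and 181 in eaf3Δ (-1.13). Wild type and set2Δ averaged under 10 RPKM for 3 of the 14, GPH1 and GLC3 among them, which passed the minimum only through the mutants. GLC3, with 7.94 in eaf3Δ, did so through H3K36A alone. Of the 11 members that passed on wild type and set2Δ, 3 were lower by 2-fold or more, the median was -0.80 and H3K36A was highest in all 11.

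Of 24 heat-shock and general stress genes, 5 were lower in eaf3Δ by 2-fold or more, against 3.04% of all genes compared. Of the 24 ratios, 23 were below 0, and their median was -0.74. DDR2 and RTN2 are among the 5 and passed the minimum only through the mutants, RTN2 through H3K36A alone. Of the 22 members that passed on wild type and set2Δ, 3 were lower by 2-fold or more. H3K36A was the highest genotype in 19 of the 24 and eaf3Δ the lowest in 10. DDR2, a small stress-induced protein, had 8.39 in wild type, 10.8 in set2Δ, 57.8 in H3K36A and 22.4 in eaf3Δ (-1.33), and HOR7, induced by osmotic shock, had 29.00 in wild type, 74.96 in set2Δ, 250.2 in H3K36A and 107 in eaf3Δ (-1.22). RTN2, a reticulon of the endoplasmic reticulum, had 8.55 in wild type, 8.28 in set2Δ, 21.03 in H3K36A and 7.93 in eaf3Δ (-1.30). HSP82, the inducible Hsp90, had 106 in wild type, 30.7 in set2Δ, 73.9 in H3K36A and 32.1 in eaf3Δ (-1.18), with wild type highest, whereas H3K36A was highest in the other 3. Of 20 antioxidant enzyme genes 4 were lower, 2 once the median gene is set to 0, and their median was -0.51. PRX1, the mitochondrial peroxiredoxin, had 35.1 in wild type, 20.5 in set2Δ, 50.3 in H3K36A and 19.4 in eaf3Δ (-1.33), and the glutathione transferase gene GTT2 was at -1.07. CTT1, cytosolic catalase, was at -1.01 and passed the minimum only through the mutants. SOD1, copper-zinc superoxide dismutase, lay at the 2-fold limit with 911 in wild type, 1028 in set2Δ, 1816 in H3K36A and 906 in eaf3Δ (-1.002). Taken with the 3 mitochondrial lists, these lists held 110 genes compared. Of these, 33 (30.0%, against 3.04% of all genes compared) were at least 2-fold lower and 0 higher. The 33 made up 29.7% of all lower genes. GPH1, GLC3, DDR2, RTN2 and CTT1 are among the 33 and passed the minimum only through the mutants, GLC3 and RTN2 through H3K36A alone. The share of 30.0% is therefore in part fixed by the minimum. Of the 19 antioxidant genes that passed on wild type and set2Δ, 3 were lower by 2-fold or more.

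The gene with the lowest ratio was IMD2 (YHR216W, chromosome VIII, 554396 to 555967), IMP dehydrogenase, which makes the first committed intermediate of GTP synthesis. It had 25.6 in wild type, 41.9 in set2Δ, 135 in H3K36A and 14.6 in eaf3Δ, a log2 ratio of -3.13, with H3K36A highest and eaf3Δ lowest. IMD2 shares much of its sequence with IMD3 and IMD4, which had ratios of -0.24 and -0.69, and reads may be shared. THI7, the thiamine transporter, had 59.2 in wild type, 90.5 in set2Δ, 212 in H3K36A and 44.6 in eaf3Δ (-2.22). Of the other vitamin B6 and thiamine genes compared, PHO3, given above, was lower and SNZ2 and THI3 were at -0.85 and -0.35. UGA1, the transaminase of gamma-aminobutyrate breakdown, had 16.7 in wild type, 20.9 in set2Δ, 88.7 in H3K36A and 21.8 in eaf3Δ (-1.98). ARO9, an aromatic aminotransferase, had 87.2 in wild type, 43.9 in set2Δ, 68.2 in H3K36A and 26.5 in eaf3Δ (-1.33), and these were the 2 of 13 aromatic and nitrogen catabolism genes beyond 2-fold. ARO9 lies 609 bp from SPL2 and had the opposite direction.

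Cell wall mannoprotein genes held CWP1, with 52.9 in wild type, 177 in set2Δ, 532 in H3K36A and 173 in eaf3Δ (-1.61), and HPF1, with 54.4 in wild type, 175 in set2Δ, 363 in H3K36A and 136 in eaf3Δ (-1.41), on the lower side. In both, set2Δ and eaf3Δ had similar levels between wild type and H3K36A. With FIT2 and FIT3 on the higher side, 4 of 23 genes of this list were beyond 2-fold and its median was -0.06. The permease list had 1 of 13 lower, AGP2 (24.3 in H3K36A and 9.98 in eaf3Δ, -1.20). PUL3, a transporter, had 1.13 in wild type, 24.4 in set2Δ, 20.2 in H3K36A and 7.91 in eaf3Δ (-1.25) and was the 1 of 10 genes in a list of drug, polyamine and related transporters beyond 2-fold. Of 35 translation factor genes, ANB1, the eIF5A isoform of low oxygen, was lower (30.5 in H3K36A and 9.91 in eaf3Δ, -1.53), while the list median was 0.21.

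Several of the lowest ratios belonged to genes near chromosome ends. Within 20 kb of the outermost annotated gene of a chromosome arm, 97 genes were compared, of which 9 were at least 2-fold lower (9.28%, against 3.04% of all genes) and 2 higher (2.06%, against 0.793%), with a median of -0.18. COS8 (YHL048W, chromosome VIII, 6401 to 7546), a membrane protein gene of a subtelomeric family, had 21.6 in wild type, 26.1 in set2Δ, 21.00 in H3K36A and 2.50 in eaf3Δ (-2.65). The other 8 COS genes compared were between -0.20 and 0.11, and reads may be shared within the family. YAR068W on chromosome I had 23.2 in wild type, 18.3 in set2Δ, 18.5 in H3K36A and 2.22 in eaf3Δ (-2.60). YHR214W had 16.8 in wild type, 13.6 in set2Δ, 15.4 in H3K36A and 1.59 in eaf3Δ (-2.66), and YHR214W-A, whose name has no match in the reference table, had 32.7 in wild type, 25.4 in set2Δ, 24.6 in H3K36A and 2.81 in eaf3Δ (-2.75). In each of these 4 genes eaf3Δ was the 1 low genotype. YAR068W, YHR214W and YHR214W-A lie in near-identical regions of chromosomes I and VIII and may share reads, so they are not separate observations. PHO11 is the annotated neighbour of YAR068W, at a distance of 2569 bp, and was on the higher side.

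Ribosome assembly genes had small differences in 1 direction. Together with the snoRNP core proteins, 99 genes were compared, none was 2-fold apart, 97 had a ratio above 0 against 45.6% of all genes, and the median was 0.42. Small-subunit assembly genes had a median of 0.36 with all 42 above 0, large-subunit genes 0.43 with 46 of 48, and snoRNP genes 0.40 with all 9. IPI3, of the Rix1 complex, had 53.5 in wild type, 22.6 in set2Δ, 10.8 in H3K36A and 19.8 in eaf3Δ (0.82), and RRP1, of large-subunit processing, had 59.96 in wild type, 23.1 in set2Δ, 7.81 in H3K36A and 13.96 in eaf3Δ (0.76). ENP1, a component of early small-subunit particles, had 74.1 in wild type, 51.6 in set2Δ, 27.5 in H3K36A and 45.5 in eaf3Δ (0.71). NOP56, a core protein of box C/D snoRNPs, had 238 in wild type, 97.8 in set2Δ, 57.4 in H3K36A and 91.04 in eaf3Δ (0.66). Both mutants were below wild type in these 4 genes, and H3K36A was the lowest genotype in all 42, 46 and 9 members of these lists that had a ratio above 0. Subunits of RNA polymerases I and III followed with a median of 0.24 and 21 of 22 above 0. The cytosolic ribosomal proteins themselves were close to equal, with medians of 0.06 over 79 large-subunit and 0.03 over 56 small-subunit genes and none beyond 2-fold, and many are paralog pairs that may share reads. Mitochondrial ribosomal proteins had a median of -0.08 over 52 genes, none beyond 2-fold.

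**Figure D3:**
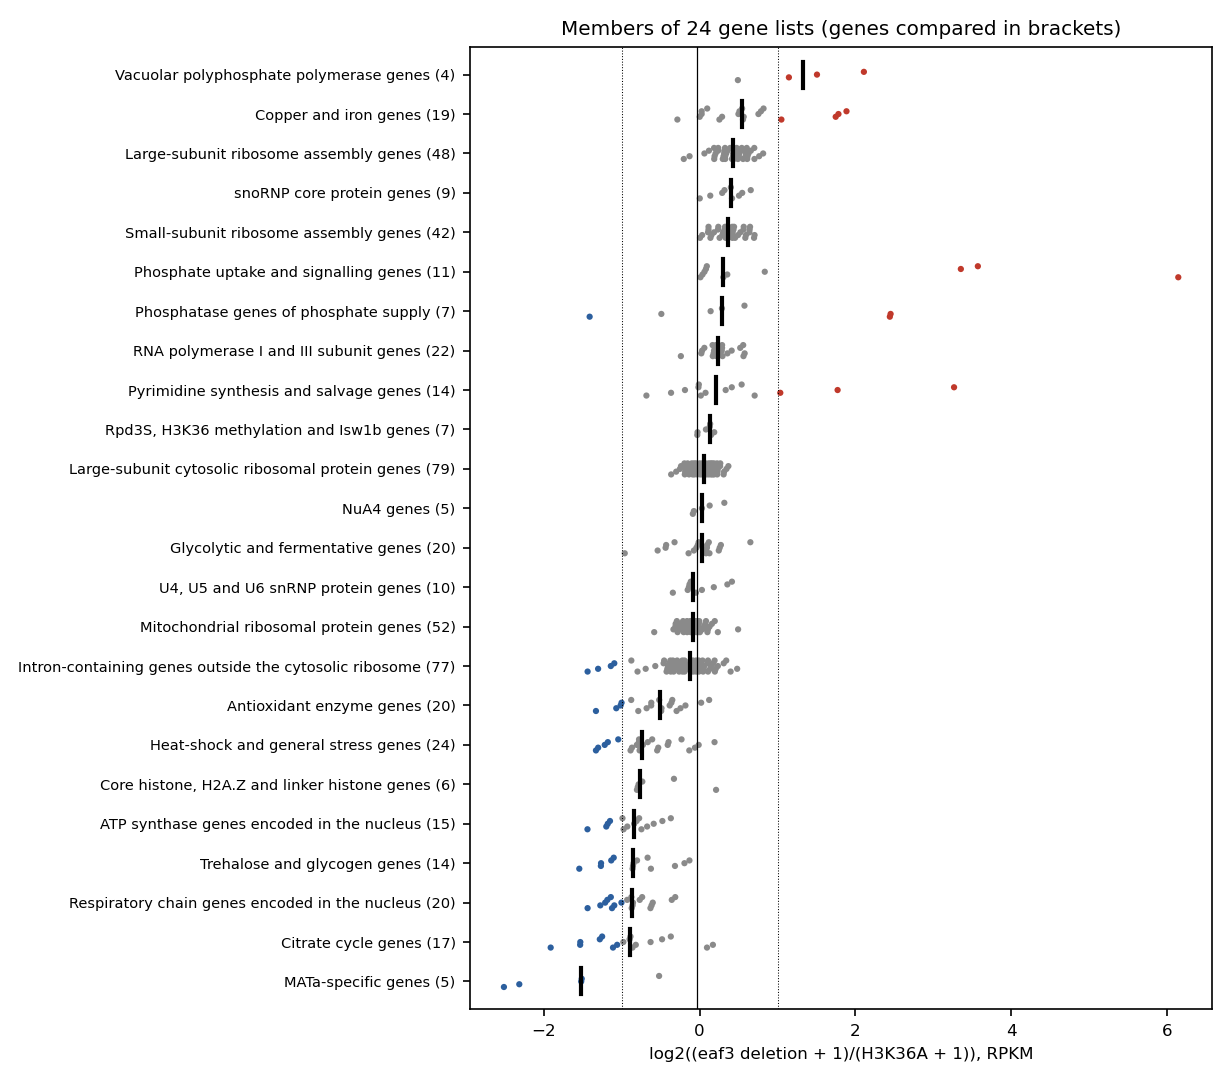
Log2 ratios of eaf3Δ to H3K36A, from RPKM with 1 added, for the members compared of 24 gene lists, 1 point per gene, with the number of genes in brackets. Thick bars are list medians, the thin line is the median of all 3657 genes at -0.03, and dotted lines mark 2-fold. Points beyond 2-fold are red (higher) or blue (lower). The medians run from 1.33 for the polyphosphate polymerase genes to -1.52 for the MATa-specific genes.

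**Figure D4:**
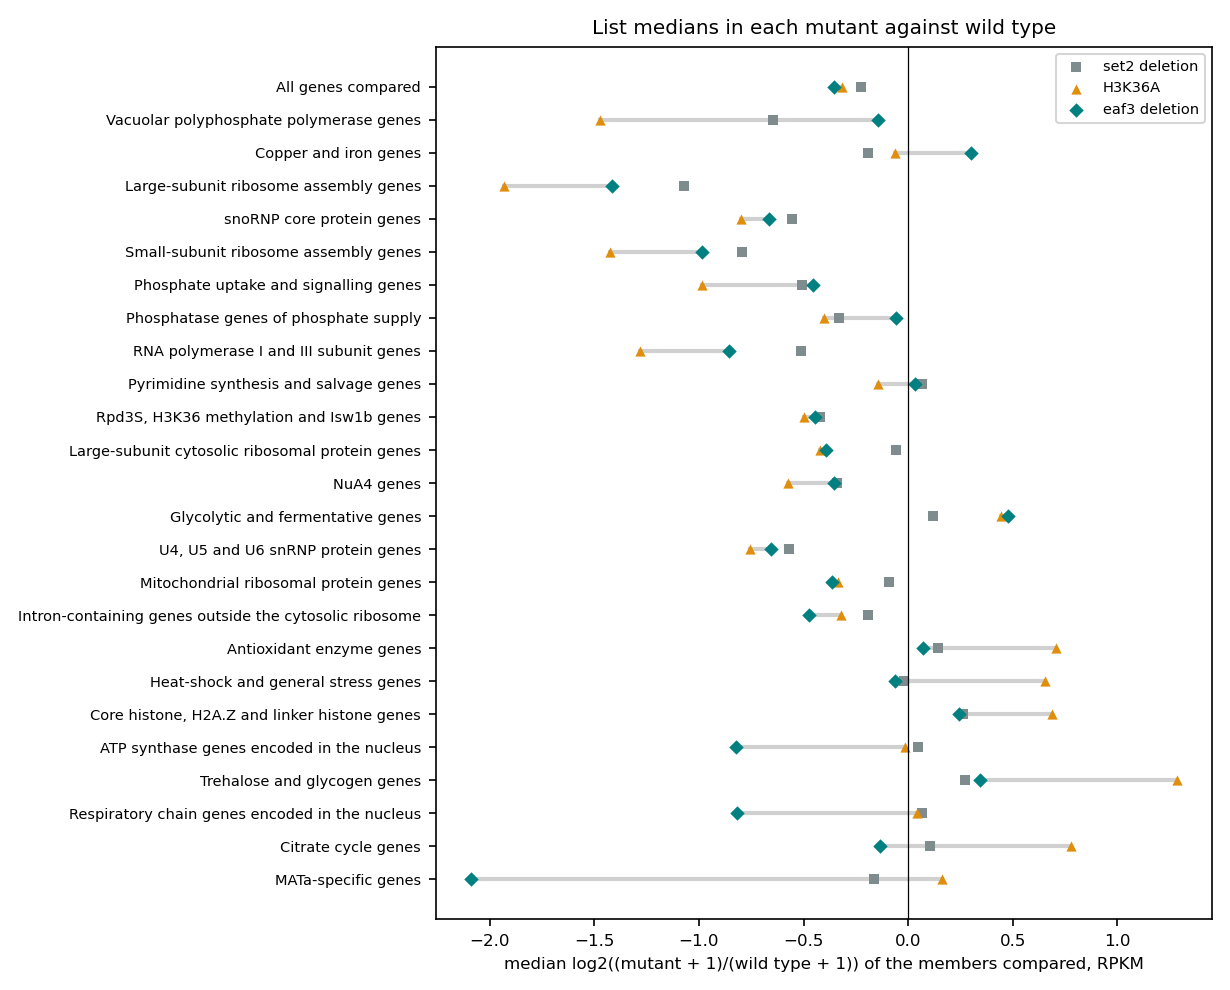
Median log2 ratio to wild type of the members compared of the same 24 lists and of all genes compared, in set2Δ (squares), H3K36A (triangles) and eaf3Δ (diamonds). Grey bars join H3K36A and eaf3Δ. For MATa-specific, respiratory chain and ATP synthase genes eaf3Δ lies at -2.09, -0.82 and -0.83, and for citrate cycle and trehalose and glycogen genes H3K36A lies at 0.78 and 1.28. The medians of all genes lie at -0.32 in H3K36A and -0.36 in eaf3Δ, and relative to them the respiratory chain genes are at 0.36 and -0.46.

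Genes of the chromatin pathway itself differed little. NuA4 had 5 genes compared with ratios from -0.09 (ACT1) to 0.32 (EAF1, the scaffold subunit). Rpd3S, H3K36 methylation and Isw1b genes had 7 compared with a median of 0.13, among them RPD3, the deacetylase, at 0.13, SIN3, its scaffold, at 0.13, and ISW1, a remodeller that acts on the same mark, at 0.19. Rpd3L and SAGA genes had medians of 0.05 over 4 and 0.04 over 12 genes, and elongation factors and histone chaperones 0.09 over 20, all with none 2-fold apart. Histone genes had a median of -0.76 over 6 genes, again with none 2-fold apart. The H2A and H2B genes HTA1, HTA2, HTB1 and HTB2 were at -0.79, -0.80, -0.74 and -0.78. HTA1 had 740.2 in wild type, 987 in set2Δ, 1581 in H3K36A and 911 in eaf3Δ. The linker histone gene HHO1 was at -0.33 and HTZ1, which encodes H2A.Z, at 0.21. None of the 6 encodes H3 or H4, for which no value was used here.

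Splicing factors and their substrates gave few calls. None of the genes compared for U1 (3), branch-site binding and U2 (6), U4, U5 and U6 (10), the Prp19 complex (5) and the helicases (3) was 2-fold apart, and the list medians lay between -0.18 for U1 snRNP proteins and 0.18 for helicases. Of 77 intron-containing genes outside the cytosolic ribosome, listed by name, 4 were lower and none higher, with a median of -0.13. These were QCR10, COX5B, COX4 and UBC5, a ubiquitin-conjugating enzyme (53.7 in H3K36A and 21.2 in eaf3Δ, -1.30). Outside the mitochondrial energy lists, 1 of 73 was lower, and the median was -0.11. Of 6 genes compared that are known for promoters inside the gene used in set2 mutants, none was beyond 2-fold and the median was -0.17. RPKM over a whole gene does not tell RNA that starts inside a gene from the full-length transcript.

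The other lists held no gene 2-fold apart. Their medians were -0.11 for 32 proteasome genes, -0.07 for 23 ergosterol genes, -0.07 for 13 adenine synthesis genes, -0.20 for 13 sulfur and methionine genes, 0.05 for 7 zinc genes, 0.01 for 18 cell cycle genes, 0.01 for 5 silencing genes, 0.13 for 6 RNA polymerase II subunits and -0.20 for 2 galactose genes. Small nuclear and nucleolar RNA genes, with SCR1 and RPR1 where listed, had a median of -0.10 over 40 genes. Of the sporulation and seripauperin lists, 3 and 5 genes were in the table and none reached the mean of 10 RPKM.

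Gene length, level and position went with small shifts of the ratio. The median log2 ratio was -0.11 in the quartile of shortest genes (117 to 768 bp) and 0.02 in the longest (1869 to 14733 bp), and 44 of the lower genes were in that of the shortest genes against 16 in the longest. By level in wild type and set2Δ, which do not enter the ratio, the medians of the quartiles lay between -0.04 and -0.01. The lowest quartile held 41 lower and 4 higher genes and the highest 25 and 13. Included in the lowest quartile are 10 lower and 2 higher genes with a mean of wild type and set2Δ under 10 RPKM. These passed the minimum only because a mutant was higher, so the counts of that quartile are in part fixed by the minimum. Chromosome medians lay between -0.15 for chromosome III and 0.01 for chromosome XIV. Genes beyond 2-fold lay near each other in 10 pairs, and other genes can lie between the members of a pair. In 7 pairs both genes had the same direction, among them CYC1 and ANB1, FIT2 and FIT3, and GAD1 and HOR7, which are 2194 bp apart. In 3 pairs, PHO3 and PHO5, SPL2 and ARO9, and YAR068W and PHO11, the genes had opposite directions. Of the 7, HXT6 and HXT7 are near-identical and YCL042W overlaps GLK1, so each of these pairs can share reads. The 7 also count YHR214W and IMD2, which are 12134 bp apart and so not close, and YHR214W may share reads as given above.

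**Figure D5:**
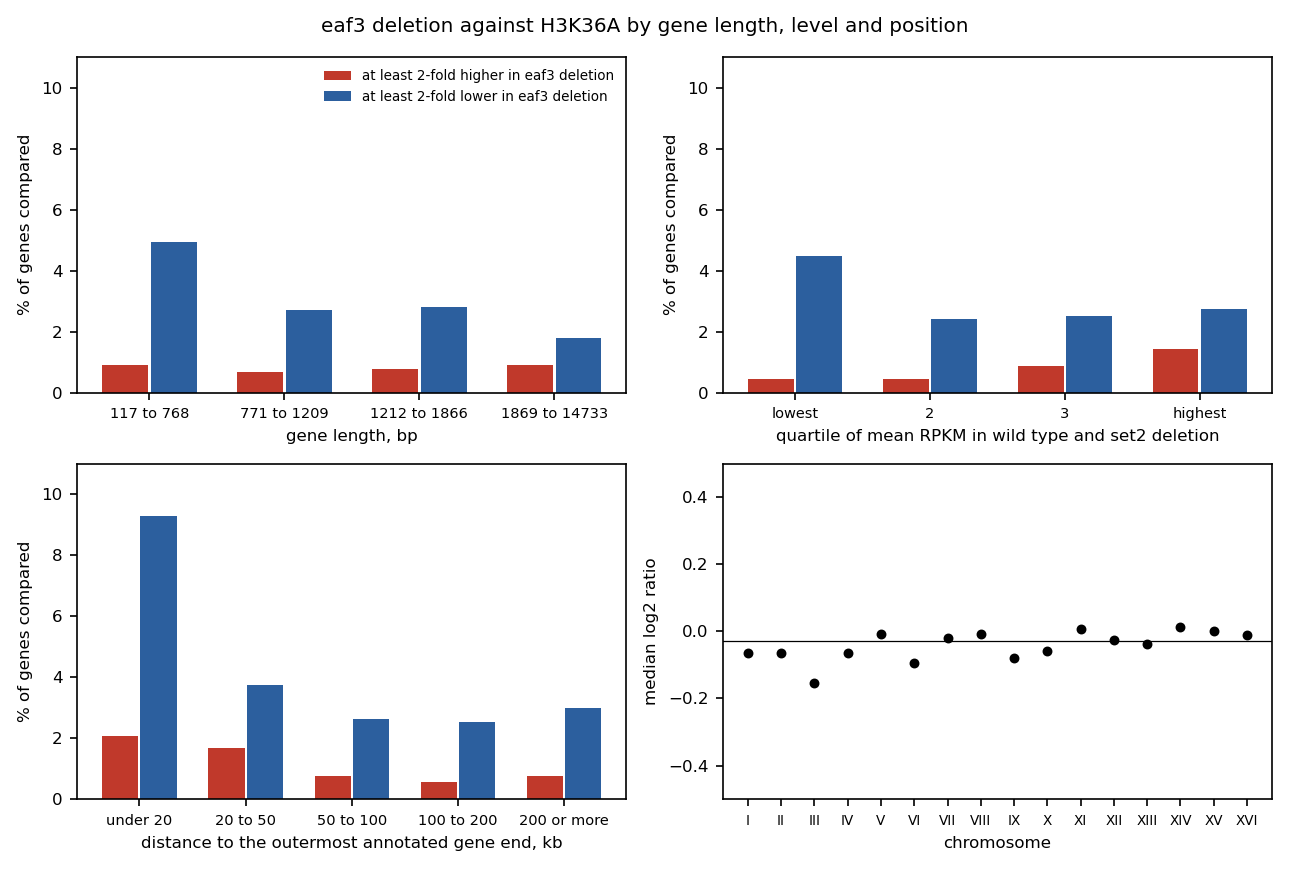
Percentage of genes compared that were at least 2-fold higher (red) or lower (blue) in eaf3Δ than in H3K36A, by quartile of gene length, by quartile of mean RPKM in wild type and set2Δ and by distance to the outermost annotated gene end, and the median log2 ratio of each chromosome (points, with the median of all genes as a line). The share of lower genes is 4.92% in the shortest quartile against 1.80% in the longest and 9.28% within 20 kb of an end, and chromosome medians stay between -0.15 and 0.01. The lowest level quartile includes genes that passed the minimum mean only because a mutant was higher.

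The 2-fold limit fell within a continuous range of ratios. Just inside it on the higher side were FUI1 and MIG3, a repressor of the glucose-regulated Mig family, at 1.04 and 1.000, and just outside were AGP1, an amino acid permease, and CUP9, a repressor of peptide uptake, at 0.97 and 0.95. On the lower side COX9 and SOD1 were just inside at -1.004 and -1.002, and CPR6, a co-chaperone of Hsp90, and YJR015W just outside at -0.997 and -0.99. Both compared values were at least 10 RPKM in 22 of the 29 higher and 81 of the 111 lower genes. Wild type and set2Δ averaged under 10 RPKM in 2 of the higher and 10 of the lower genes, which passed the minimum through 1 or both of the mutants that were compared. Among the 1669 genes not compared, 1 was at least 2-fold higher and 24 lower. The 1 higher gene was CTF19, a kinetochore gene beside VTC3, with 4.03 in H3K36A and 9.72 in eaf3Δ. Among the lower ones YAR066W had 13.00 in H3K36A and 1.14 in eaf3Δ and NDJ1, a meiotic telomere gene, 17.3 in H3K36A and 2.16 in eaf3Δ. YAR066W lies near YAR068W on chromosome I, so it may share reads with the genes of that region given above and is not a separate observation.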

How the data were processed

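Total RNA from 8 libraries, 2 per genotype, was sequenced. Per the submitters' processing notes, CASAVA, TopHat2 2.0.14 and the build sacCer3 were used; these sources do not say how reads were counted into genes, with or without strand, or how reads with several matches were handled. Deposited RPKM values are the authors' means per genotype, per the file headers, so depth and replicate error are unknown. RPKM is relative: where a few abundant RNAs take more reads, all other genes are lower. The copy used here has 3 blank lines. Symbols and coordinates are those of RefSeq, assembly R64, which 5176 rows matched by name and 150 did not.

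The log2 ratio was computed with a pseudocount of 1 RPKM, which understates differences of low genes, over genes averaging at least 10 RPKM, in Python 3.11.15 with pandas 2.3.3 and numpy 2.4.6. Its arithmetic was checked by putting known fold changes into 1 column, which does not bear on low genes, replicate spread or the minimum mean. No test was possible on averages. Named genes were the 16 highest and 16 lowest ratios, up to 4 members per list beyond 2-fold with the largest ratios (up to 2 where none passed), and neighbours where a locus is described; others were chosen after their values were seen. The comparison and its 65 lists were chosen with earlier results of these data known, and the intron list was added later because the reference holds no exons. Alternatives were pseudocounts of 0.1 and 5, no minimum, a minimum on wild type and set2Δ, quantile normalization and removal of small RNA genes.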

Additional observations from a re-analysis of the deposited data

How the results depend on the processing

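Across the alternatives the number of higher genes ranged from 26 to 31 and that of lower genes from 86 (pseudocount of 5) to 135 (all rows naming a gene); relative to the median gene the ranges were 27 to 32 and 85 to 122. The median log2 ratio of all genes ranged from -0.06 to 0.04, the latter after quantile normalization, where it changed sign. No named gene reversed. With a pseudocount of 5, 8 named genes came within 2-fold relative to the median gene: AGP2, ARN1, ATP20, GLC3, GTT2, PUL3, RTN2 and SST2. On the authors' scale RTN2 stayed beyond 2-fold at this setting, while FUI1, HIS3, CTT1 and SOD1 were among the called genes that came within the limit. UGP1 came just within it after quantile normalization, and CTT1 passed it relative to the median gene with a pseudocount of 0.1. Of the list medians relative to the median gene, that of the MATa-specific genes moved to -1.81 without small RNA genes, that of the hexose transporters from -0.40 to -0.03 and that of phosphate uptake and signalling from 0.33 to 0.14 over all rows, that of pyrimidine synthesis from 0.23 to 0.12 over all rows and to 0.10 with the minimum on wild type and set2Δ, and that of the vitamin B6 and thiamine genes to between -0.83 and -0.32. Removal of rows with repeated values and of rows not found in RefSeq, both chosen after seeing the data, kept the counts within these ranges. No paired analysis was possible because each genotype has 1 averaged column and no column per replicate, and for the same reason no replicate could be left out. Depth limits cannot be given.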

Other observations

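Of the genes beyond 2-fold, 7 of the 29 higher and 51 of the 111 lower ones were in none of the lists by function. The genes named here were chosen after their values had been seen and support no statement about a group. Several lower ones encode mitochondrial proteins outside the respiratory and citrate lists. POR1, the outer membrane channel, had an RPKM of 385 in wild type, 864 in set2Δ, 1754 in H3K36A and 826 in eaf3Δ (log2 ratio -1.09). GUT2, mitochondrial glycerol-3-phosphate dehydrogenase, had 19.3 in wild type, 13.7 in set2Δ, 21.4 in H3K36A and 9.51 in eaf3Δ (-1.09), and MCR1, a mitochondrial cytochrome b5 reductase, had 76.7 in wild type, 83.98 in set2Δ, 110.2 in H3K36A and 53.7 in eaf3Δ (-1.02). Of the genes for glycine cleavage, GCV1 was at -1.12 and GCV2 at -1.39, and GCV3, at -0.81, was within 2-fold. LSP1 and NCE102, proteins of the eisosome domain of the plasma membrane, were at -1.28 and -1.07, while PIL1, the other core eisosome gene, was at -0.30.

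UBI4, polyubiquitin, had 116 in wild type, 80.2 in set2Δ, 243 in H3K36A and 84.96 in eaf3Δ (-1.51), and GAD1, glutamate decarboxylase, which makes the substrate of UGA1, had 14.7 in wild type, 21.9 in set2Δ, 77.7 in H3K36A and 22.3 in eaf3Δ (-1.76). TEC1, a transcription factor of filamentous growth, had 20.7 in wild type, 15.3 in set2Δ, 13.9 in H3K36A and 5.92 in eaf3Δ (-1.11). On the higher side OLE1, the fatty acid desaturase, had 801 in wild type, 1114 in set2Δ, 404 in H3K36A and 890.3 in eaf3Δ (1.14), MAE1, malic enzyme, had 178 in wild type, 122 in set2Δ, 73.95 in H3K36A and 174 in eaf3Δ (1.22), and DUR12, urea amidolyase, had 19.2 in wild type, 27.2 in set2Δ, 22.6 in H3K36A and 61.6 in eaf3Δ (1.41). YLR154C-G, at 2.49 with 83.9 in wild type, 3.23 in set2Δ, 18.5 in H3K36A and 108 in eaf3Δ, overlaps rRNA genes, so reads of residual rRNA can enter its value. NFG1 had 12.2 in wild type, 24.1 in set2Δ, 18.8 in H3K36A and 4.52 in eaf3Δ (-1.84).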
